A study of Mus musculus with 31 samples.

Results

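The genes described here are Mbp, Mog, Sox10, Cnp, Mal and Gjc3, which were taken by symbol from the platform annotation and are markers of myelin and of the oligodendrocytes that make it. All 6 were measured, out of 15096 named genes on the array. Mbp had 3 probes and the other genes 1 each, which gave 8 spots. The study measured whole-brain RNA of 31 BXD/TyJ strains, recombinant inbred mouse lines bred from C57BL/6J and DBA/2J, each strain on 1 glass array with 2 colours. Strain RNA, labelled with Alexa Fluor 647, was pooled from 3 male mice aged 8 weeks. The C57BL/6J whole-brain RNA that served as the reference on every array, also from males aged 8 weeks, was labelled with Alexa Fluor 555, and dyes were never exchanged. The labels' protocol for the reference channel also names 2 ug of a spike-in, material added to the RNA.

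Oligodendrocytes wrap axons in a multilayered membrane that speeds the conduction of impulses. Mbp encodes myelin basic protein, which holds the inner faces of that membrane together, and Mog encodes a glycoprotein on its outermost surface. Cnp encodes a phosphodiesterase that keeps cytoplasmic channels in the sheath open, and Mal a proteolipid that sorts membrane components to it. Gjc3 encodes a connexin that forms gap junctions in glia. Sox10 is a transcription factor that switches on myelin genes, with Mbp among its known targets.

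Promoter windows from the RefSeq table of build GRCm38.p6 were examined for 4 of the 6 genes, Cnp, Gjc3, Mog and Mal. Each window ran from 250 bases before to 50 bases after the start of the gene. Mbp and Sox10 were not examined in this way, so the search says nothing about Mbp as a target of Sox10. The windows of Cnp and Gjc3 are shown because these 2 genes had mean log ratios of similar size and opposite sign and the closest relation of any pair over all arrays. Both strands were searched for ACAAAG and AACAAT, short sequences of the kind that Sox proteins bind. The motifs overlap in the letters ACAA, and capitals mark the matches. The Cnp window lies at chr11:100574689-100574988 on the forward strand and the Gjc3 window at chr5:137963049-137963348 on the reverse strand.
Cnp: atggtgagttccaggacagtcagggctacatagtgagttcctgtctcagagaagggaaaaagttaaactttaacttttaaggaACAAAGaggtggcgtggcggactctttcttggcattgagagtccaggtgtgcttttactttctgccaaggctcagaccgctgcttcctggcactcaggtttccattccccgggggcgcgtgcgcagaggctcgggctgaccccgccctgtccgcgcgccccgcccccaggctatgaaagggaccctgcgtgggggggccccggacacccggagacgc
Gjc3: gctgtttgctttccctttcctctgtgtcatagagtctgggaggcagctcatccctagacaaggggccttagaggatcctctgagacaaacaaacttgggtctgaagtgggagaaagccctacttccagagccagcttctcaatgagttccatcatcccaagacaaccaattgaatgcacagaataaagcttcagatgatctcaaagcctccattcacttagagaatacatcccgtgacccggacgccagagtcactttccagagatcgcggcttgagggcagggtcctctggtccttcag
The Cnp window held 1 match to ACAAAG, and the windows of Gjc3, Mog and Mal held 0 matches to either motif. Of all 32851 windows in the table, 18.7% held ACAAAG, 10.7% held AACAAT and 27.0% held at least 1 of them. GC content was 59.7% in the Cnp window and 50.7% in the Gjc3 window, against a median of 52.7% over all windows. A match describes the letters only.

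The deposited values are log ratios between the strain and C57BL/6J. They were read as log2, with the strain on top and C57BL/6J below, since the labels list the strain channel first. Neither the base nor the direction is stated, so all signs would turn together if the direction were the other one. As each strain had 1 array of 1 pool, strain and array cannot be told apart. In whole-brain RNA, fewer cells of a type and less RNA per cell cannot be told apart either.

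The arrays fell into 3 sets that the labels do not name. With the 6 genes left out, the largest gap on the first principal component (28.7% of the variance) set apart 7 arrays, those of BXD23, BXD28, BXD36, BXD38, BXD6, BXD8 and BXD20. The largest gap among the others on the second component (11.9%) set apart 8 arrays, those of BXD39, BXD40, BXD42, BXD33, BXD34, BXD15, BXD22 and BXD27. The 16 arrays that remained had a mean pairwise correlation of 0.753 with each other, and the 7 arrays had 0.450 with all others. The 6166 spots with no gene symbol or with several symbols, taken alone, placed all 31 arrays alike. These spots also took part in forming the sets, so the agreement is no independent check. Because the sets were read from the arrays, values are described by set with no test between sets.

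The first comparison asked whether the mean log ratio of each gene over the strains differed from 0. By limma's moderated test with Benjamini-Hochberg adjustment, 5 of the 6 genes differed from 0 at an adjusted p of 0.05, where 76.1% of all 21262 features (genes, or spots without a single symbol) did. Cnp, Mal, Mog and Sox10 had positive means, as did 42.1% of all features, and Gjc3 had a negative mean, as did 33.9%. Mbp did not pass as the average of its 3 probes, which went different ways. It passed when the first set of 7 arrays was left out (mean 0.05; limma adjusted p = 0.0241) and on the 16 remaining arrays alone (mean 0.07; limma adjusted p = 0.0269). The median of the 6 means was 0.24, against 0.03 over all named genes. The share of the 6 genes that passed was near that of all features, so the count is no result about myelin genes.

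Among the genes of the myelin sheath, Cnp had log ratios from 0.02 in BXD32 through a median of 0.36 to 0.96 in BXD6. All 31 strains were above 0, and the mean was 0.42 ± 0.05 (SE, n = 31; limma adjusted p = 9.65e-10). Mal ranged more widely, with a lowest value of -0.55 in BXD24, a median of 0.40 and a highest value of 1.23 in BXD15. It was above 0 in 28 strains and averaged 0.44 ± 0.07 (SE, n = 31; limma adjusted p = 1.08e-06).

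Mog had a lowest log ratio of -0.09 in BXD16, a median of 0.31 and a highest of 1.27 in BXD23. It too was above 0 in 28 strains, and its mean was 0.38 ± 0.06 (SE, n = 31; limma adjusted p = 1.19e-06). When the test asked for more than 1.2-fold, Cnp, Mal and Gjc3 passed and Mog did not (limma adjusted p = 0.00383, 0.0320, 0.000311 and 0.0996). That made 3 of the 6 genes, where 27.9% of all features passed.

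Gjc3, the gap junction gene, was the only one of the 6 with a negative mean. Its log ratios ran from -0.67 in BXD32 through a median of -0.49 to 0.20 in BXD36, the single strain above 0. The mean was -0.43 ± 0.04 (SE, n = 31; limma adjusted p = 4.04e-12), about as far below 0 as those of Cnp and Mal were above it. Sox10, the transcription factor, stayed near 0. It ran from -0.21 in BXD20 to 0.30 in BXD1 with a median of 0.10 and was above 0 in 23 strains. Its mean stood at 0.10 ± 0.03 (SE, n = 31; limma adjusted p = 0.00128).

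Each of the 6 genes lies on a chromosome of its own in the RefSeq annotation, Mog on 17, Sox10 on 15, Cnp on 11, Mal on 2, Gjc3 on 5 and Mbp on 18. The 3 Mbp probes did not give 1 answer. Probe 1097 ran from -0.27 in BXD36 to 1.01 in BXD20 with a median of 0.38, and 30 strains were above 0. Probe 12618 had a lowest value of -0.29 in BXD8, a median of 0.18 and a highest value of 0.43 in BXD33. Probe 14306 was below 0 in all 31 strains, from -0.91 in BXD8 to -0.12 in BXD9 with a median of -0.40. Tested as single spots, all 3 differed from 0, as did 76.2% of all spots. The mean was 0.39 ± 0.04 for probe 1097 (SE, n = 31; limma adjusted p = 2.16e-09) and 0.15 ± 0.03 for probe 12618 (limma adjusted p = 0.000159). For probe 14306 it was -0.41 ± 0.04 (limma adjusted p = 9.80e-12). Their average, 0.04 ± 0.03 (limma adjusted p = 0.152), therefore describes none of them.

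Nor did the Mbp probes follow each other over the strains. With the means of the 3 array sets subtracted, Pearson's r was 0.07 between probes 1097 and 12618 (Spearman's rho 0.20; permutation p = 0.813 and 0.342, n = 31). It was 0.29 between probes 1097 and 14306 (rho 0.26; permutation p = 0.293 and 0.206). Between probes 12618 and 14306 it was -0.26 (rho -0.40; permutation p = 0.275 and 0.0476). No pair had a positive r that passed the permutation test. Probes 12618 and 14306 had -0.40 without BXD8 and BXD6 (rho -0.47, permutation p = 0.0426 and 0.0154, n = 29). With the first 3 principal components removed in place of the set means they had -0.30 (rho -0.40, permutation p = 0.102 and 0.0261, n = 31). Within the 16 remaining arrays they had -0.38 (rho -0.45, permutation p = 0.152 and 0.0805). Which transcripts of the gene each probe detects was not tested.

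**Figure D1:**
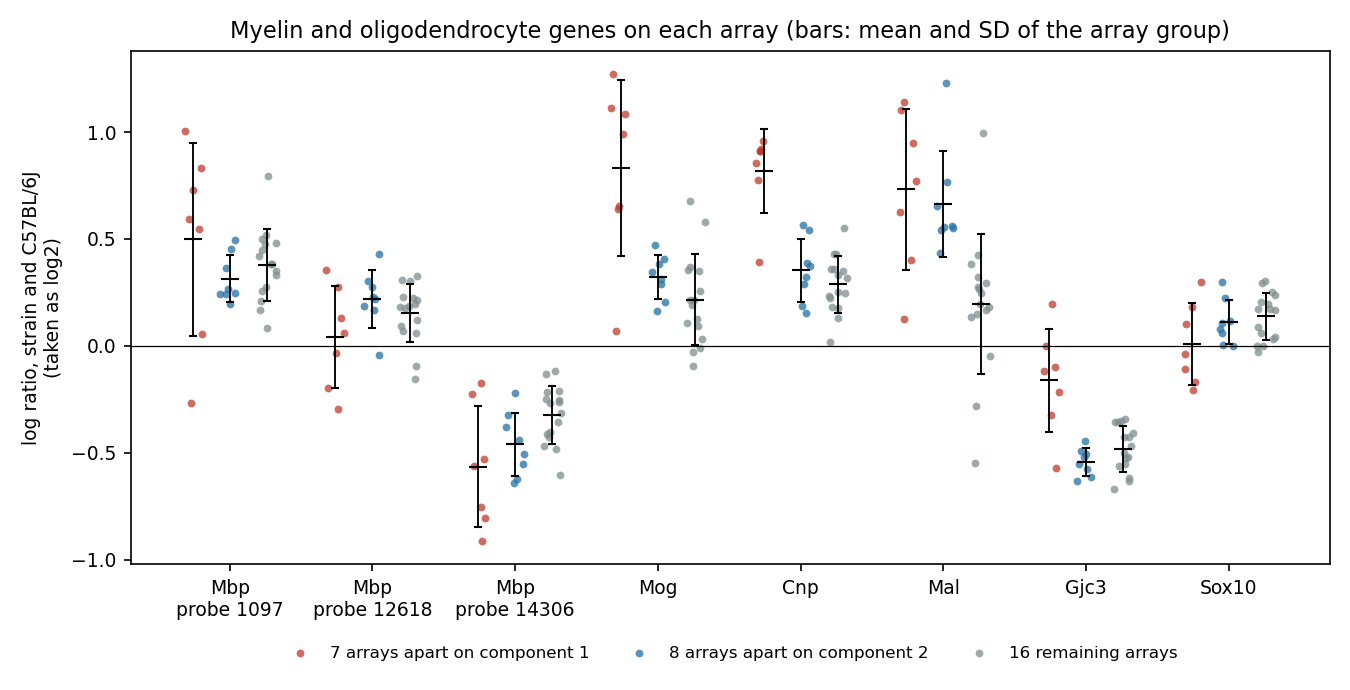
Log ratio of each array (vertical axis, taken as log2) for the 3 Mbp probes and the other 5 genes, by array set; bars are the mean and SD of the set. Mbp probe 14306 lies below 0 on all 31 arrays and probe 1097 above 0 on 30. Of the 7 arrays apart on component 1, all but BXD28 lie above every one of the 16 remaining arrays for Cnp. For Gjc3 all but BXD20 do.

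How far the genes varied between strains also differed. The SD over the 31 strains was 0.40 for Mal and 0.35 for Mog, more than in 82.9% and 74.3% of named genes, whose median SD was 0.27. Cnp had an SD of 0.26 and Gjc3 of 0.20. Sox10 had 0.14, and only 2.91% of named genes had a smaller SD. Mbp as an average had 0.12, an average of 3 spots, and its single probes had 0.17 to 0.25.

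Part of this spread followed the array sets. The sets accounted for 68.8% of the variance of Cnp, 53.9% of that of Gjc3, 51.7% of that of Mog and 40.1% of that of Mal. The corresponding share was 14.9% for Sox10 and 7.19% for Mbp, and the median over all named genes was 33.9%. Cnp, Gjc3, Mog and Mal thus lay above the median gene, and Sox10 and Mbp below it.

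Cnp averaged 0.82 ± 0.20 on the 7 arrays apart on the first component, 0.35 ± 0.15 on the 8 apart on the second and 0.29 ± 0.13 on the remaining 16 (SD). Of the 7 arrays, 6 lay above every remaining array, and BXD28 at 0.39 lay among them. For Mog the means were 0.83 ± 0.41, 0.32 ± 0.10 and 0.21 ± 0.21 in the same order of sets, and 4 of the 7 arrays lay above every remaining one.

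Mal differed in that both outlying sets stood high. It averaged 0.73 ± 0.38 on the 7 arrays and 0.66 ± 0.25 on the 8, against 0.20 ± 0.33 on the remaining 16 (SD). Gjc3 was the least negative on the 7 arrays, at -0.16 ± 0.24, with -0.54 ± 0.06 on the 8 and -0.48 ± 0.11 on the remaining 16. Of the 7 arrays, 6 were above every remaining array and BXD20 at -0.57 was not. Sox10 ran the other way, with 0.01 ± 0.19 on the 7 arrays, 0.11 ± 0.10 on the 8 and 0.14 ± 0.11 on the remaining 16, and 4 of the 7 lay below every remaining array.

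The Mbp probes differed here as well. Probe 1097 averaged 0.50 ± 0.45, 0.31 ± 0.11 and 0.38 ± 0.17 on the 7, the 8 and the remaining 16 arrays (SD). Probe 12618 had 0.04 ± 0.24, 0.22 ± 0.13 and 0.15 ± 0.13, the only one of the 3 with a higher mean on the 8 than on the remaining 16. Probe 14306 had -0.57 ± 0.28, -0.46 ± 0.15 and -0.32 ± 0.14. For all 6 genes the range on either outlying set overlapped that of the remaining arrays. Among all named genes the ranges did not overlap for 8.52% with the 7 arrays and for 4.16% with the 8.

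Other oligodendrocyte genes differed between the sets in both directions. Mobp, a myelin-associated protein gene, averaged -0.00 on the 7 arrays and 0.62 on the remaining 16, whereas Cd9, a tetraspanin gene, averaged 0.50 and -0.15 and the transcription factor gene Nkx6-2 0.40 and -0.32. The median log ratio of 6 further markers (Mag, Mobp, Cldn11, Olig1, Olig2 and Ugt8a) ran from -0.13 to 0.35 on the 7 arrays, from -0.02 to 0.23 on the 8 and from -0.13 to 0.31 on the remaining 16. Of the markers of other cell types, 10 astrocyte genes had medians from 0.05 to 0.16 on the 8 arrays, against -0.29 to 0.10 on the remaining 16, and from -0.15 to 0.11 on the 7. For 9 neuronal genes the ranges were -0.20 to 0.07, 0.02 to 0.34 and -0.07 to 0.19 in the order of the 7, the 8 and the remaining 16 arrays. Microglial markers (9 genes) ran from -0.19 to 0.21, from -0.18 to 0.07 and from -0.17 to 0.27, and endothelial markers (10 genes) from -0.03 to 0.18, from 0.00 to 0.29 and from -0.08 to 0.37. The part of other cell types in the values of the 6 genes was not tested.

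The next comparison asked whether the genes rose and fell together over strains. Taken over all 31 arrays without regard to the sets, 3 of the 15 pairs had r above 0.5. These were Cnp with Gjc3 at 0.61, Mog with Cnp at 0.58 and Mog with Mal at 0.56, and only 2.25%, 2.94% and 3.57% of all pairs of named genes had a higher r. The lowest was Sox10 with Cnp at -0.46. Arrays of 1 set share their mean, so these values over all arrays are given as a description, without their permutation p-values. The median over the 15 pairs was 0.06, against -0.001 over all 113937060 pairs of named genes, and 8 of the 15 were above 0.

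Once the means of the array sets were subtracted, most of this was gone. Cnp with Gjc3 fell to 0.07 (rho 0.14; permutation p = 0.750 and 0.473, n = 31). Mog with Cnp fell to -0.04 (rho 0.02; permutation p = 0.846 and 0.928). Mog with Mal stood at 0.39 (rho 0.37; permutation p = 0.0564 and 0.0601). Sox10 with Cnp was at -0.28 (rho -0.20; permutation p = 0.194 and 0.280). The median over the 15 pairs was again 0.06 and 8 pairs were above 0, while the median size was 0.29, against 0.15 for all pairs of named genes. Within the 16 remaining arrays the median size was 0.22 for the 15 pairs and 0.22 for all pairs, and with sets ignored it was 0.28 against 0.22.

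**Figure D2:**
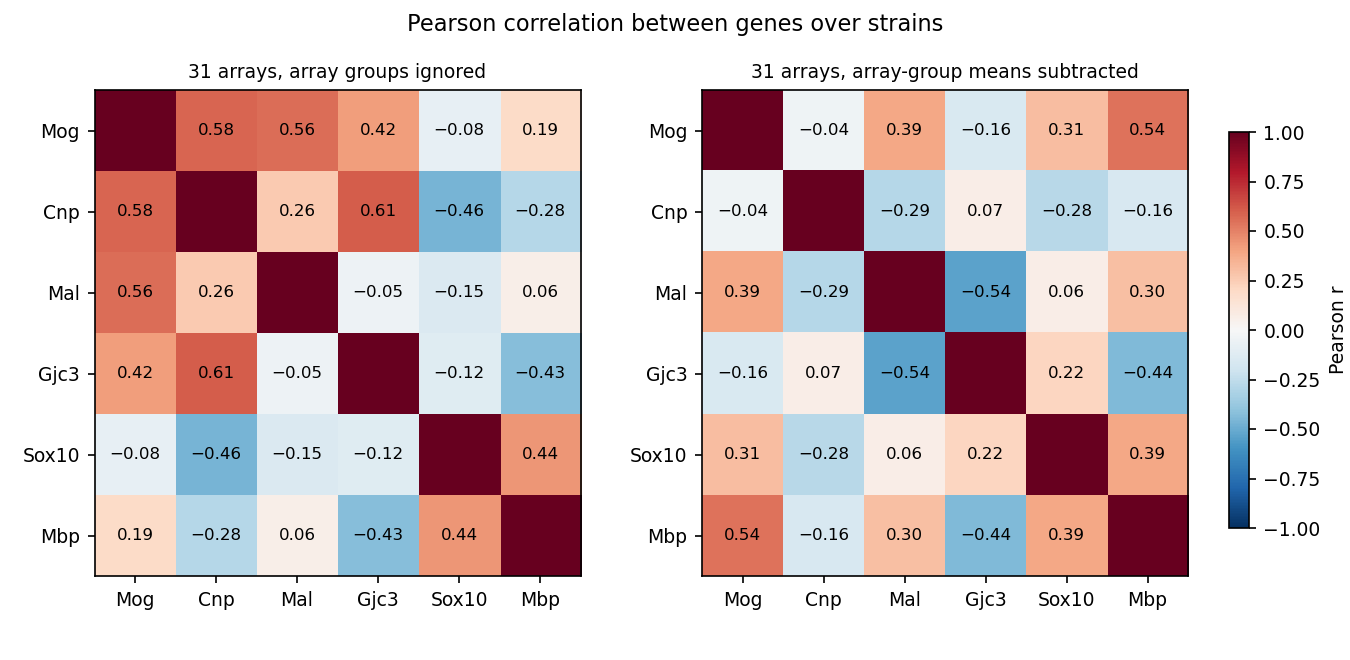
Pearson correlation over 31 strains between the 6 genes (rows and columns), with array sets ignored on the left and with the means of the sets subtracted on the right; colour and printed value give r. Cnp with Gjc3 and Mog with Cnp stand at 0.61 and 0.58 on the left and at 0.07 and -0.04 on the right, and Mal with Gjc3 at -0.05 and -0.54.

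Mal with Gjc3 and Mbp with Mog stood out only after this step. Mal and Gjc3 were related inversely, with r at -0.54 (rho -0.48; permutation p = 0.00457 and 0.0127, n = 31), and r had the same sign in each set. It was -0.75 within the 7 arrays (rho -0.68; exact permutation p = 0.0494 and 0.110), -0.59 within the 8 (rho -0.45; exact permutation p = 0.113 and 0.267) and -0.38 within the remaining 16 (rho -0.34; permutation p = 0.146 and 0.205). Without BXD24 and BXD15, the arrays farthest from the median of Mal, r was -0.57 (permutation p = 0.00827, n = 29), with rho at -0.37 (permutation p = 0.0825). With the first 3 components removed in place of the set means, the call was lost, at r = -0.32 (rho -0.23; permutation p = 0.0791 and 0.205, n = 31).

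Mbp and Mog were related positively, at 0.54 (rho 0.34; permutation p = 0.0238 and 0.104, n = 31). This relation rested on BXD8 and BXD36, the arrays farthest from the median of Mbp, without which r was 0.07 (rho 0.05; permutation p = 0.716 and 0.800, n = 29). It also turned between sets, with 0.85 within the 7 arrays (rho 0.82; exact permutation p = 0.0139 and 0.0341) and -0.72 within the 8 (rho -0.69; exact permutation p = 0.0424 and 0.0694). Within the remaining 16 it was 0.22 (rho 0.30; permutation p = 0.418 and 0.261). With set means subtracted, none of the single Mbp probes passed with Mog, at 0.42 for probe 1097, 0.31 for probe 12618 and 0.25 for probe 14306 (permutation p = 0.128, 0.193 and 0.326). With the first 3 components removed instead, the average had 0.58 with Mog (rho 0.31, permutation p = 0.00093 and 0.0892, n = 31). The single probes then had 0.41, 0.22 and 0.40 in the same order (permutation p = 0.0243, 0.237 and 0.0254).

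With set means subtracted, some single Mbp probes had closer relations with some members than their average did. Probe 12618 had weaker ones, at 0.08 with Sox10, -0.07 with Gjc3 and 0.04 with Mal, against 0.39, -0.44 and 0.30 for the average. Probe 1097 and Mal had 0.46 (rho 0.43, permutation p = 0.0211 and 0.0234, n = 31). Without BXD36 and BXD20 this was 0.24 (rho 0.335, permutation p = 0.236 and 0.0902, n = 29). Probe 1097 and Gjc3 had -0.63 (rho -0.50, permutation p = 0.00949 and 0.00962, n = 31). Without BXD36 and BXD20 this was -0.29 (rho -0.42, permutation p = 0.186 and 0.0299, n = 29). Within the 16 remaining arrays it was -0.17, and -0.62 there without BXD21 and BXD32 (rho -0.63, permutation p = 0.0187 and 0.019, n = 14). Within the 7 arrays it was -0.84 (rho -0.89, exact permutation p = 0.0147 and 0.0123). Within the 8 it was -0.37 (rho -0.52, exact permutation p = 0.366 and 0.197). Probe 14306 and Sox10 had 0.55 (rho 0.44; permutation p = 0.00839 and 0.0277, n = 31), which was 0.41 without BXD8 and BXD20 (rho 0.34; permutation p = 0.0559 and 0.102, n = 29) and 0.36 within the 16. By Pearson's r with set means subtracted, none of these relations passed on the 29 arrays left. With 3 components removed in place of the set means, probe 14306 and Sox10 had 0.54 (rho 0.42, permutation p = 0.0019 and 0.0198, n = 31). Probe 1097 then had -0.49 with Gjc3 (rho -0.31, permutation p = 0.00681 and 0.0929) and 0.36 with Mal (rho 0.28, permutation p = 0.0487 and 0.129).

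Within the 16 remaining arrays the closest pair was Mog with Mal, at 0.64 (rho 0.59; permutation p = 0.00823 and 0.0167), and 1.61% of all gene pairs had a higher r there. Without BXD5 and BXD1, the arrays farthest from the median of Mog, r was 0.52 (rho 0.62; permutation p = 0.0554 and 0.0211, n = 14). The same pair had 0.26 within the 7 arrays (rho 0.29; exact permutation p = 0.586 and 0.556) and -0.17 within the 8 (rho -0.17; exact permutation p = 0.687 and 0.703). Sox10 and Cnp within the 8 arrays had -0.72 (rho -0.67; exact permutation p = 0.0432 and 0.0831). In all, the 15 pairs were given permutation p-values in 8 settings, each with both measures, and the pairs of single Mbp probes were computed besides; these p-values are not adjusted.

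**Figure D3:**
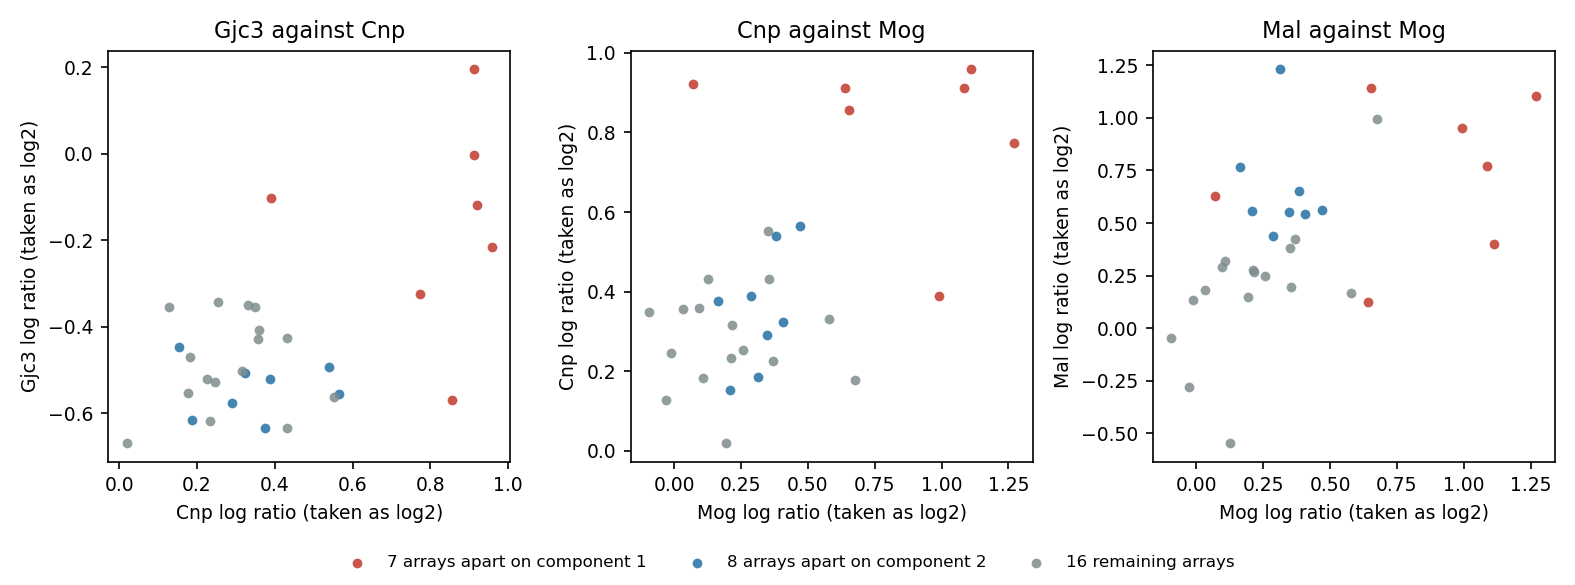
Log ratios (taken as log2) of Gjc3 against Cnp, Cnp against Mog and Mal against Mog, 1 point per array, coloured by array set. Except for BXD28 and BXD20, the 7 arrays apart on component 1 lie to the upper right in the Cnp and Gjc3 plot, where r is 0.61 over all arrays and 0.07 with the means of the sets subtracted, and Mal follows Mog within the 16 remaining arrays at r = 0.64.

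Adjustment over the whole table was made by fitting, for each gene in turn, every other feature on the log ratio of that gene with the array set as a factor in limma. No other member of the 6 passed in any of the 6 fits. The nearest were Mal in the fit on Gjc3 (limma adjusted p = 0.0747), Mog in the fit on Mbp (limma adjusted p = 0.136) and Mbp in the fit on Mog (limma adjusted p = 0.154). With 0.00% to 1.39% of all features passing in these fits, a count of 0 among so few results is no result about the members. Without the array set as a factor, 8 of 30 results between members passed. All 8 came from the fits on Mog, Cnp, Mal and Gjc3, in which 23.9% to 41.6% of all features passed. In the fits on Mbp and Sox10, 0.00941% and 0.00% of all features did. As the 30 results span all 6 fits, the count has no single background share and is no result about the members. Cnp with Mog, Cnp with Gjc3 and Mog with Mal passed in both of their fits (limma adjusted p from 0.00245 to 0.00901). Sox10 in the fit on Cnp (limma adjusted p = 0.0468) and Mog in the fit on Gjc3 (limma adjusted p = 0.0499) did so in 1 fit each.

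The number of features that followed a gene showed the same dependence. With the set as a factor, Gjc3 was followed by 1.39% of features, Mog by 0.546%, Cnp by 0.188%, Mbp by 0.132% and Mal by 0.0282%. Sox10 was followed by 0 of 21261 features in limma (0.00%), with 1620 at an unadjusted p under 0.05. With the set left out, 41.6% of features followed Cnp, 33.5% Mog, 30.4% Gjc3 and 23.9% Mal, while 0.00941% followed Mbp and 0.00% followed Sox10.

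The genes whose pattern over the 31 arrays was closest to that of each member, with the means of the sets subtracted, were mostly not genes of myelin. Closest to Mog were Phb2, a prohibitin of mitochondria, at 0.80, Fam243 at 0.76 and Fut4, a fucosyltransferase, at 0.75. Closest to Mbp were Sspn, encoding sarcospan, at 0.78, Plod2, a collagen lysyl hydroxylase, at 0.73 and Zfp712 at 0.72. Cnp was followed most closely by Nrg3, a neuregulin, at 0.75, the nuclease gene Dnase1 at 0.74 and Oser1 at 0.71.

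Closest to Mal were Ndufa3, a subunit of respiratory complex I, at 0.75, Reep4 at 0.72 and the chromatin remodeller Smarca4 at 0.72. For Gjc3 they were Peg12 at 0.82, the transcription factor gene Sall1 at 0.79 and 4930426L09Rik at 0.77. For Sox10 they were the MHC class II gene H2-Ea at 0.72, Ripk4 at 0.66 and the cell cycle kinase gene Cdk2 at 0.64. The most opposed genes were Extl1 for Gjc3 at -0.80, Nlrp14 for Mog at -0.79, Dclre1b for Mbp at -0.77, Bcl11b for Cnp at -0.75, Wnk4 for Mal at -0.71 and Slc9a2 for Sox10 at -0.68. These values are descriptions over 31 arrays, taken as extremes among 15095 other genes, so high values arise in any such search. Nrg3 and Ripk4 had probes at the eighth place in a run of 8 spots. Such features were mostly negative: with them left out, 5191 of 18655 features had a negative mean that passed the test, against 7216 of 21262 with them.

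Other genes of the oligodendrocyte lineage were examined from a list of 50, of which 40 had a probe with a single symbol. By the limma test against 0, 17 had a positive and 12 a negative mean and 11 did not pass. Of all 15096 named genes, 6300 were positive, 5113 negative and 3683 did not pass. The median of the 40 means was 0.04, against 0.03 over all named genes.

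In the list of compact myelin and sheath genes, 6 of 12 were positive and 3 negative. Pmp22, a myelin protein best known from peripheral nerve, averaged 0.80 ± 0.06, and the tetraspanin gene Tspan2 had 0.45 ± 0.05 (SE, n = 31; limma adjusted p = 5.96e-13 and 5.81e-10). The chaperone gene Cryab, on an eighth-place probe, was below 0 in all 31 strains with a median of -1.33 (limma adjusted p = 4.92e-15). Gjb1, the only connexin gene of the lineage list that was measured, had a positive mean of 0.12 ± 0.04 (limma adjusted p = 0.00284), of the sign opposite to Gjc3.

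Of 6 transcription factor genes 2 were positive and 2 negative. The means were 0.31 ± 0.06 for Olig1 and -0.12 ± 0.03 for Olig2, both regulators of the lineage, and -0.28 ± 0.05 for Tcf7l2, an effector of Wnt signalling with a probe at the eighth place (SE, n = 31; limma adjusted p = 7.67e-06, 0.00154 and 1.23e-05). In the list of lipid enzymes 2 of 6 were positive and 1 negative. Aspa, which cleaves N-acetylaspartate, had 0.25 ± 0.04, Gal3st1, which makes sulfatide, 0.29 ± 0.05 and the ceramide synthase gene Cers2 -0.10 ± 0.04 (limma adjusted p = 2.67e-07, 5.48e-06 and 0.0259).

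Among 12 other genes of mature oligodendrocytes 3 were positive and 6 negative. Gsn, encoding the actin-severing protein gelsolin, had 0.88 ± 0.08, Bcas1 -0.76 ± 0.08 and the carbonic anhydrase gene Car2, at the eighth place, -0.37 ± 0.05 (SE, n = 31; limma adjusted p = 1.09e-11, 1.11e-09 and 1.55e-08). All 3 precursor genes measured were positive. They were Lhfpl3 at 0.32 ± 0.03, the growth factor receptor gene Pdgfra at 0.32 ± 0.04 and the receptor phosphatase gene Ptprz1 at 0.38 ± 0.07 (limma adjusted p = 1.02e-10, 1.35e-07 and 1.52e-05).

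**Figure D4:**
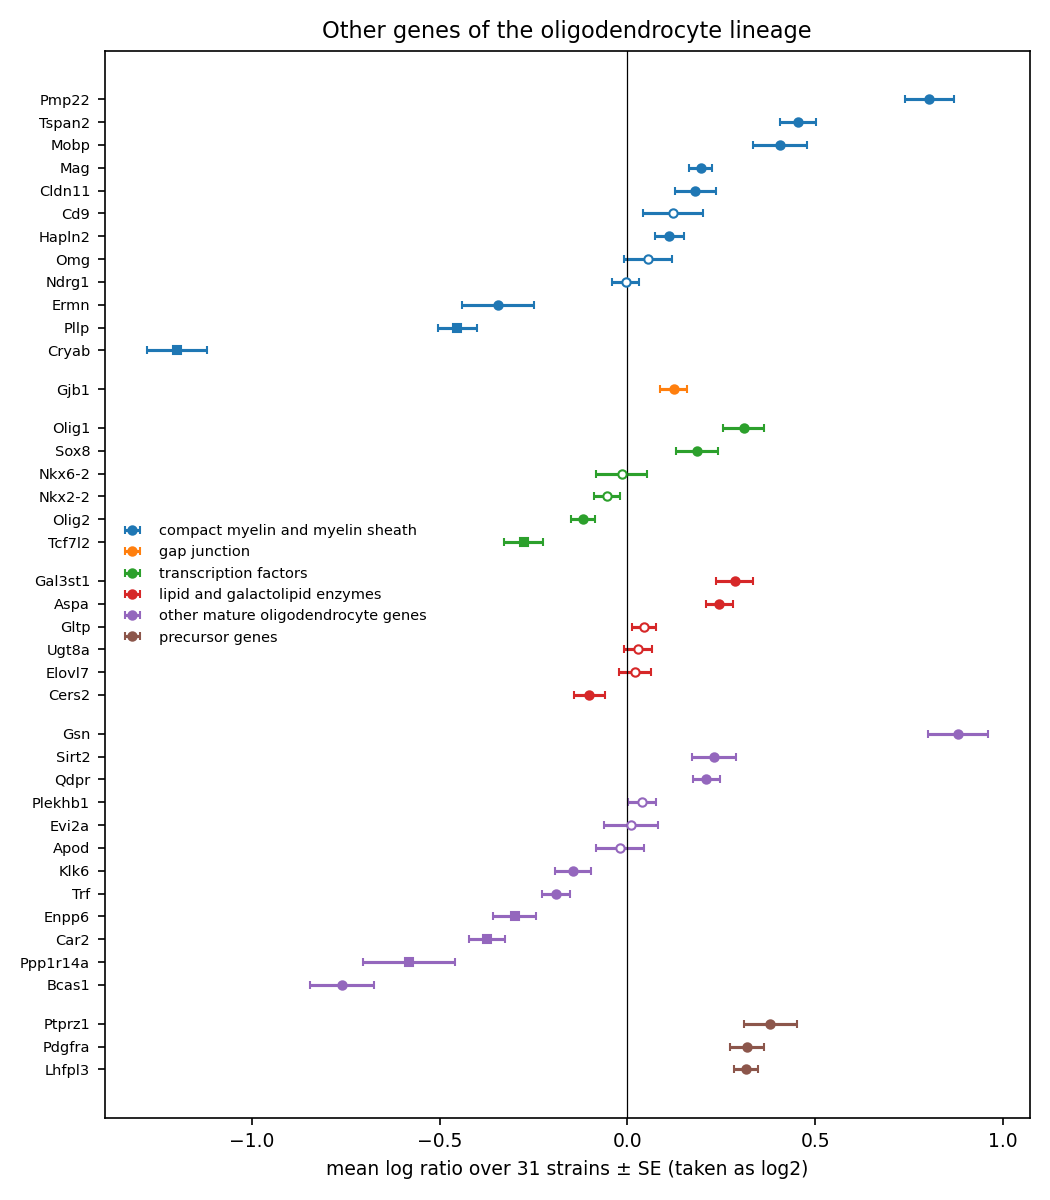
Mean log ratio over 31 strains with its SE (horizontal axis, taken as log2) for 40 other genes of the oligodendrocyte lineage, grouped and coloured by list; filled symbols passed the limma test against 0, and squares are genes with a probe at the eighth place in a run of 8 spots. Cryab lies lowest and Gsn, at 0.88, highest, with 17 positive and 12 negative calls.

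With the array sets in the fit, few lineage genes passed, as did few features of any kind, 0.00% to 1.39% of all. None of the 40 passed in limma in the fits on Mbp, Mog, Sox10, Cnp and Mal. In the fit on Gjc3 only Sox8, a relative of Sox10, passed, with r at -0.73 (limma adjusted p = 0.00411). On the 16 remaining arrays alone it did not (limma adjusted p = 0.875). Median r with the 40 genes was 0.21 for Mog, 0.13 for Mal and 0.13 for Mbp, beside 0.02, 0.01 and 0.01 for these members with all named genes. Median r was 0.06 for Sox10, -0.03 for Cnp and -0.09 for Gjc3. Of the 40 genes, 31 had r above 0 with Mog, 22 with Mal and 29 with Mbp. For Sox10, Cnp and Gjc3 these counts were 23, 18 and 17. With the sets ignored, median r was 0.01 for Mog, -0.03 for Mal and 0.14 for Mbp, with 20, 19 and 30 genes above 0. Beside these, all named genes had medians of 0.01, 0.01 and 0.002. Sox10, Cnp and Gjc3 then had medians of 0.14, -0.06 and -0.13 with the 40 genes, of which 27, 18 and 14 were above 0. With all named genes their medians were -0.01, 0.02 and 0.01. Without the set in the fit, 17 of the 40 passed in the fit on Cnp, 6 with a positive and 11 with a negative slope, in which 41.6% of all features passed.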

How the data were processed

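Whole-brain RNA of 31 BXD strains was measured against C57BL/6J on 2-colour arrays, 1 array per strain, from 20 ug of pooled RNA per the labels' protocols. The deposited values are log ratios of 23040 spots, taken as log2, with 0 missing. The submitters' processing notes name R 2.0.0 and limma without saying for what. How background and dye bias were treated within an array is not stated in the labels or headers used here. Sorted values were identical in the 31 columns, so the authors had applied quantile normalisation between arrays, which removes any shift of a whole array. Intensities were not analysed here, so no spot could be called dim or saturated, and the number of arrays limits the precision.

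Probes were named from the platform annotation where it gave 1 symbol, and several probes for 1 gene were averaged, for 15096 named genes and 21262 features. The mean log ratio was tested against 0, and covariation with each member with the array set as a factor, in limma 3.58.1 under R 4.3.3 with Benjamini-Hochberg adjustment over all features. The test against 0 leaves out the spread of the C57BL/6J reference and cannot separate constant effects of dye, spot or spike-in. Pairwise correlations were tested by 100000 permutations within array sets, or exactly within the sets of 7 and 8 arrays, two-sided. The fits were tested on simulated data. Replicate arrays of a strain were not analysed here, so p-values measure the spread between strains and arrays together.

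Named beside the 6 members were the 3 genes with the smallest adjusted p in each lineage list, and for each member the 3 genes with the highest and the 1 with the lowest r. Sox8, Cd9, Nkx6-2 and the genes of the marker list were named after their values were seen. The members and lists were chosen with earlier results of these data known. Alternatives changed centring, arrays, weighting, the test, probes, eighth-place spots, ranks and components.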

Additional observations from a re-analysis of the deposited data

Results flagged for a closer look

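Cnp on the array of BXD28 was 0.39, far below the median of 0.91 for its set of 7 arrays. Mal on the array of BXD15 was 1.23, far above the median of 0.56 for its set of 8 arrays. Each lay apart from the nearest other array of its set by more than Dixon's critical value. There were 12 such tests, of 6 genes in both outlying sets, and chance flags about 1 in 20 groups. The cause of either value was not tested.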

How the results depend on the processing

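Log base and direction are not stated, and strain and array cannot be told apart. Against 1.2-fold, 5938 features and 3 members differed from 0, and Mbp probe 14306 alone had a mean of -0.41 where the average of the Mbp probes was positive. Mbp as an average passed the test without the 7 arrays (0.05) and on the 16 remaining arrays (0.07). The features following a member changed most. With no array-set factor they numbered 2 for Mbp, 7133 for Mog, 8835 for Cnp, 5073 for Mal and 6465 for Gjc3, and 8 results between members passed. With 3 components as covariates they were 47 for Mog, 3 for Cnp, 0 for Mal and 34 for Gjc3. On the 16 remaining arrays they were 2 for Mbp, 2 for Mog, 0 for Cnp, 0 for Mal and 15 for Gjc3. Without the 7 arrays they were 0 for Mbp, 0 for Cnp and 3 for Mal. With ranks they were 2 for Mbp, 6 for Mog, 0 for Cnp, 0 for Mal and 35 for Gjc3. Without eighth-place features Mbp had 60. With a single Mbp probe as covariate, chosen after seeing the data, they were 176 for probe 1097, 0 for probe 12618 and 2 for probe 14306. With the array-set factor the counts were 28, 116, 40, 6 and 296 for Mbp, Mog, Cnp, Mal and Gjc3. Sox10 had 0 in all settings of limma, with 1139 to 4066 features at an unadjusted p under 0.05.

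The median r over the 15 pairs was 0.06 with set means subtracted, 0.11 by Spearman's rho, 0.0591 over all arrays with sets ignored, 0.0079 without the 2 farthest arrays and 0.14 with 3 components removed. Signs turned with sets ignored for Mog with Sox10 (-0.0797), Mog with Cnp (0.58), Mog with Gjc3 (0.42), Sox10 with Mal (-0.15), Sox10 with Gjc3 (-0.12) and Cnp with Mal (0.26). They turned with 3 components removed for Mbp with Cnp (0.094), Mog with Cnp (0.13), Mog with Gjc3 (0.14) and Cnp with Gjc3 (-0.19), and by Spearman's rho for Mog with Cnp (0.0173). Mal with Gjc3 lost its call with 3 components removed (-0.32). In that setting Mbp with Mog (0.58), Mbp with Sox10 (0.41) and Mog with Sox10 (0.45) had permutation p = 0.00093, 0.023 and 0.0105 by r. By rho the permutation p was 0.0892, 0.085 and 0.0156. The cause was not tested. No paired analysis was possible because there is 1 group of strains, each with 1 array.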
